A study of Mus musculus with 8 samples.

Results

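The genes that commit cells to striated muscle and keep its stem cells were examined in mouse esophagus, in 4 libraries of MGL KO and 4 of WT mice. The 10 genes were taken by symbol from a count table of 32849 symbols and comprise the stem cell factors Pax7 and Pax3, the regulators Myf5, Myod1, Myog and Myf6, the fusion genes Mymk and Mymx, the adhesion molecule Ncam1 and the head muscle regulator Tbx1. All 10 had at least 1 count, and 8 passed the filter on low counts, which Pax3 and Mymx did not. MGL KO mice lack monoacylglycerol lipase, which degrades the endocannabinoid 2-arachidonoylglycerol, in the whole body and were bred with WT littermates. The study's methods state that male and female mice of 8 to 12 weeks were used, while the labels give neither sex nor age for a library, and no strain is named for this line. All mice were healthy, each library was made from poly(A) RNA of frozen esophagus, and the question was which genes differ at baseline without MGL.

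Striated muscle cells arise from progenitors in which Pax7, and in trunk and limb Pax3, mark the stem cell state. Myf5 and Myod1, basic helix-loop-helix (bHLH) transcription factors, commit these cells to muscle. Myog then drives their differentiation, Mymk and Mymx fuse the differentiating cells into fibers, and Myf6 is kept on in mature fibers. The mouse esophagus is unusual for a gut tube in that its outer muscle is striated, and this muscle belongs with that of the head, where Tbx1 and Isl1 rather than Pax3 act upstream of the myogenic factors.

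The promoters of Myod1 and Myog are shown because these are the 2 members with the largest differences between the genotypes. Each is the 250 bases before the start of the canonical transcript in GENCODE release M39 on GRCm39, 5′ to 3′ on the gene's own strand, which is the forward strand for both. Capitals mark E-boxes, the CANNTG motif that myogenic bHLH factors bind, searched on both strands, which read the same.
Myod1, chr7:46025620-46025869: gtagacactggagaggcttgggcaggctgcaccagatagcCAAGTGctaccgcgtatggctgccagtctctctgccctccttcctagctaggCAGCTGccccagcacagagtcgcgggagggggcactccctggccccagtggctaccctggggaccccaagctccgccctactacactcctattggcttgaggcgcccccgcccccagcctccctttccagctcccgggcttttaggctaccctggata
Myog, chr1:134217457-134217706: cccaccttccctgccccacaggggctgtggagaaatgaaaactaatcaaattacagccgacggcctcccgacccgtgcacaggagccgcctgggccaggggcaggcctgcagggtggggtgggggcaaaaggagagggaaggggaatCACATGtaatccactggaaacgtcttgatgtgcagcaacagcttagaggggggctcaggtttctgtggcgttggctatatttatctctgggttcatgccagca
The Myod1 window held 2 E-boxes, and the Myog window held 1. An E-box was found in the windows of 6 of the 10 members and in 64.8% of the 21770 protein-coding windows of this length. The narrower form CAGCTG, which is itself a CANNTG, was present for Myod1, Mymx and Pax7, that is 3 of 10 members, and in 11.9% of all windows. These matches describe the letters only.

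The libraries held between 13479069 and 17090152 counts. Values are normalized CPM, in which a library's counts are scaled to its size over the kept genes and to its TMM factor. On this scale 3 counts are worth 0.167 to 0.271 CPM. They were taken as the upper limit of the expected count where 0 were observed (counting error only). Mgll, the targeted gene, lay between 12.6 and 16.0 CPM in MGL KO and between 66.6 and 88.3 CPM in WT libraries. All 14 listed skeletal muscle genes had counts in every library, so the labelled tissue showed its striated muscle. Their summed CPM spanned 2.38-fold between libraries, from 47436 in MGL KO replicate 4 to 112660 in MGL KO replicate 2, and its group means were 77048 ± 26853 (SD, n = 4) in MGL KO and 76144 ± 14224 (SD, n = 4) in WT. MGL KO replicate 4 also held airway transcripts, its 10 ciliated cell genes summing to 718.4 CPM against at most 21.2 CPM elsewhere. Summed expression of 4 Y-linked genes lay between 185.6 and 223.7 CPM in all libraries, and each of these genes was at 16.2 CPM or more in each. No library thus came from females alone. The labels list the replicates as separate samples and do not say how they were collected. Libraries of a group differed beyond sampling noise, with a chi-square per degree of freedom of 13.6 to 160.8 for a pair. The p-values set the difference between the genotypes against this spread between libraries. In whole tissue, fewer cells of a type and less RNA per cell cannot be told apart.

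Myod1 was the member that stood apart. This master regulator of muscle commitment, on chromosome 7 of GRCm39 from 46025870 to 46028526, was at 29.0, 45.4, 36.5 and 24.5 CPM in MGL KO replicates 1 to 4 and at 17.3, 18.9, 18.1 and 11.7 CPM in WT replicates 1 to 4. The lowest MGL KO library thus lay above the highest WT library. Groups that did not overlap were seen in 6.02% of the 14864 tested genes, and in 2.72% with MGL KO on top. The mean was 33.9 ± 9.14 CPM (SD, n = 4) in MGL KO and 16.5 ± 3.30 CPM (SD, n = 4) in WT esophagi, a 2.05-fold difference. The log2 fold change was 1.03 (standard error 0.22, 95% interval 0.53 to 1.54). In edgeR's quasi-likelihood test its unadjusted p of 0.00122 ranked 59th among the tested genes, and after Benjamini-Hochberg adjustment over these genes p was 0.306. Myod1 was thus not called by the quasi-likelihood test, whereas its adjusted p was 0.0156 in edgeR's exact test on the same genes, 0.0376 in that test without a filter and 0.0069 with DESeq2. Over 13 alternative settings that kept all libraries it ranged from 0.0069 to 0.649. The size of the difference moved little, between 0.95 and 1.05 on the log2 scale over these settings and between 0.86 and 1.16 when each library was left out in turn, where 0 of 8 fits called it.

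Across the 8 tested members, 0 had an adjusted p under 0.05 in the quasi-likelihood test, against 0.0471% of all tested genes (0.0202% higher in MGL KO). An unadjusted p under 0.05 was reached by 1 member, Myod1, against 8.65% of all genes (4.35% higher and 4.29% lower). Myod1 was the 1 member called by DESeq2 (0.855% of all genes called) and by edgeR's exact test with the filter (0.431%) and without it (0.185%). The other alternatives called 0 members, namely limma-voom (0.168% of all genes), the robust fit (0.0135%), library size alone (0.0404%), the replicate block (0.0135%), no filter (0.0088%), a minimum of 10 counts in each library (0.0523%), the Y-linked covariate (0.0202%), the skeletal muscle covariate (0.202%) and RLE or upper quartile factors (both 0.0471%). Of the tested members, 3 were higher and 5 lower in MGL KO, and their median log2 fold change was -0.08 beside 0.02 over all tested genes.

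**Figure D1:**
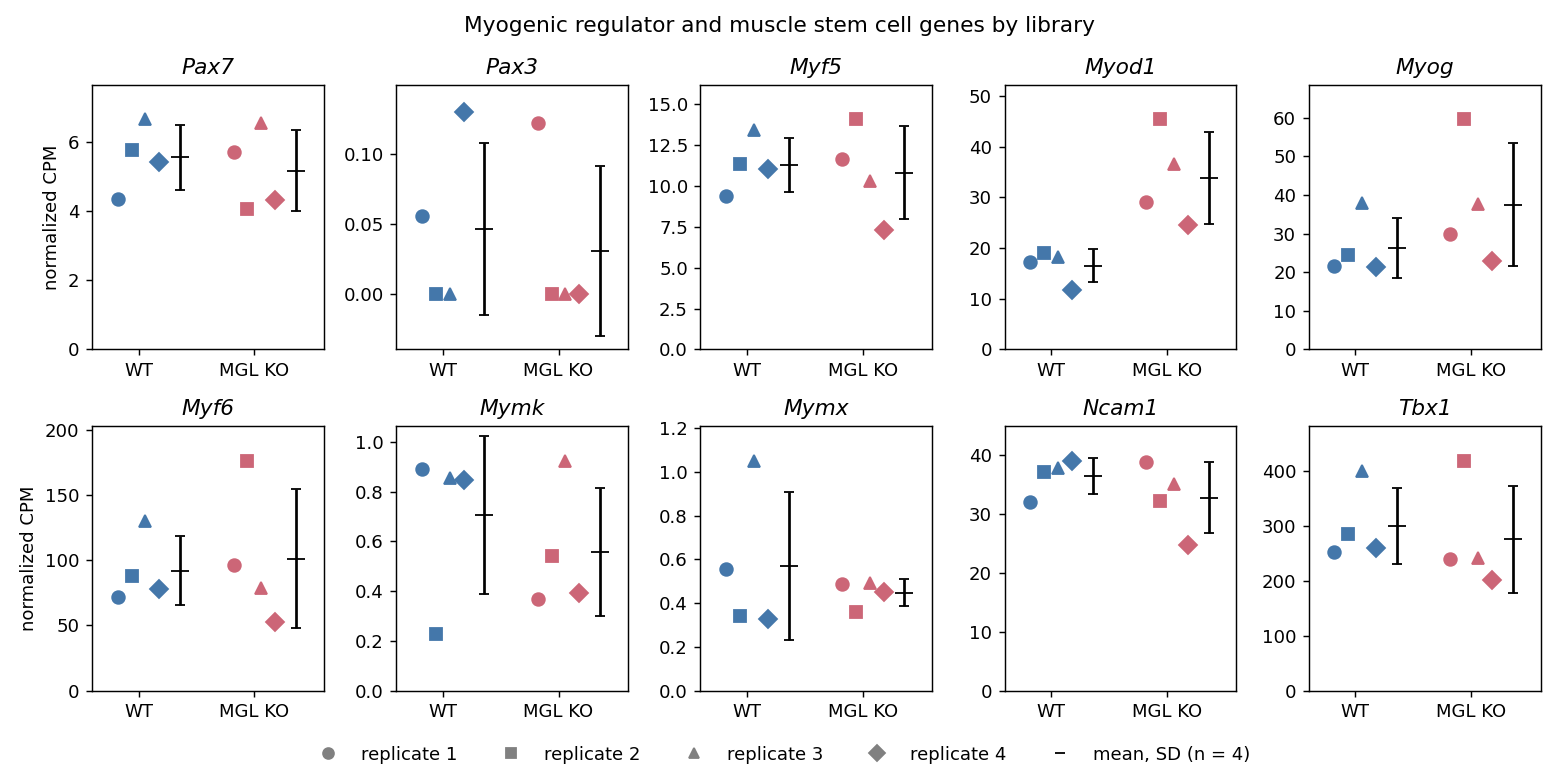
Normalized CPM (vertical axes, each gene on its own scale) of the 10 myogenic genes in 4 WT (blue) and 4 MGL KO (red) libraries, with marker shapes for replicate numbers and black bars for the mean and SD. Myod1 is the gene whose MGL KO libraries, at 24.5 CPM or more, all sit above its WT libraries, at 18.9 CPM or less.

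Pax7, the transcription factor that marks muscle stem (satellite) cells, was present in every library at a low level. Its values were 5.69, 4.06, 6.54 and 4.33 CPM in MGL KO replicates 1 to 4 and 4.35, 5.76, 6.64 and 5.41 CPM in WT replicates 1 to 4, from between 45 and 106 counts. The groups overlapped throughout, and the log2 fold change was -0.10 (95% interval -0.63 to 0.43, quasi-likelihood adjusted p = 0.909). Pax3, which marks trunk and limb progenitors, had 2 counts in all MGL KO libraries together and 3 counts in all WT libraries. It was at 0 in 3 MGL KO and 2 WT libraries, and no library exceeded the level that 3 counts give, so no fold change is given.

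Myf5, which acts beside Myod1 in commitment, lies on chromosome 10, 6.72 kb from Myf6. It was at 11.6, 14.1, 10.3 and 7.31 CPM in MGL KO and at 9.37, 11.4, 13.4 and 11.0 CPM in WT replicates 1 to 4. The highest and the lowest library were both MGL KO. Its log2 fold change of -0.06 (95% interval -0.55 to 0.43, quasi-likelihood adjusted p = 0.94) contrasts with that of Myod1. In counts, the ratio of Myod1 to Myf5 within a library was 3.15 ± 0.46 (SD, n = 4) in MGL KO, ranging from 2.49 to 3.54, and 1.48 ± 0.35 (SD, n = 4) in WT, ranging from 1.06 to 1.85. The groups did not overlap in this ratio, nor in the ratio of Myod1 to Pax7, which was 5.10 to 11.2 in MGL KO and 2.16 to 3.97 in WT. Of all other tested genes, 3.2% separated the groups in their ratio to Myf5 and 1.88% in their ratio to Pax7. These are descriptions, rest on the same Myod1 counts and belong to 7 ratios computed between members, of which 4 separated the groups and 3 did not. The groups overlapped in the ratio of Myod1 to Myog, at 0.76 to 1.07 in MGL KO and 0.48 to 0.81 in WT, of Myog to Pax7, at 5.26 to 14.7 in MGL KO and 3.93 to 5.69 in WT, and of Myf5 to Pax7, at 1.58 to 3.47 in MGL KO and 1.97 to 2.15 in WT.

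Myog, the differentiation factor on chromosome 1, was at 29.9, 59.6, 37.7 and 22.9 CPM in MGL KO replicates 1 to 4 and at 21.5, 24.4, 37.8 and 21.3 CPM in WT replicates 1 to 4. MGL KO replicate 2 was the highest library, but WT replicate 3 lay above the other 3 MGL KO libraries. The mean was 37.5 ± 15.9 CPM (SD, n = 4) in MGL KO and 26.2 ± 7.85 CPM (SD, n = 4) in WT. Its log2 fold change of 0.51 (standard error 0.30, 95% interval -0.17 to 1.20) did not pass the quasi-likelihood test (adjusted p = 0.659). It was 0.21 without MGL KO replicate 2 and 0.75 without WT replicate 3. Myog shares 22 exon bases with the antisense gene Gm32221.

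Myf6, the factor of mature fibers, was at 96.0, 176.2, 78.8 and 52.9 CPM in MGL KO and at 71.9, 88.2, 129.9 and 77.7 CPM in WT replicates 1 to 4. It was highest in MGL KO replicate 2 and lowest in MGL KO replicate 4, and the groups overlapped. The log2 fold change of 0.13 (95% interval -0.65 to 0.92, quasi-likelihood adjusted p = 0.92) became -0.27 without MGL KO replicate 2. The ratio of Myf6 to Myod1 was 2.16 to 3.88 in MGL KO and 4.16 to 7.16 in WT libraries, and that of Myf6 to Myog 2.09 to 3.21 in MGL KO and 3.35 to 3.66 in WT libraries. In both ratios the groups did not overlap. The same was true of 64.1% of all other tested genes in their ratio to Myod1, so the first ratio is no result about Myf6, and of 4.24% in their ratio to Myog.

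Mymk (myomaker) and Mymx (myomixer), the membrane proteins that fuse myoblasts, were barely detected in both genotypes. Mymk had between 4 and 16 counts in a library, at 0.37 to 0.92 CPM in MGL KO and 0.23 to 0.89 CPM in WT. Mymx had the same range of counts, at 0.36 to 0.49 CPM in MGL KO and 0.33 to 1.05 CPM in WT. The log2 fold change of Mymk was -0.33 (95% interval -1.46 to 0.79), a wide interval that spans 0, so no difference was detectable at this depth. It was -0.71 without MGL KO replicate 3 and -0.17 without MGL KO replicate 1. In the fit without a filter, which includes Mymx, the log2 fold change of Mymx was also -0.33 (quasi-likelihood adjusted p = 0.826).

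Ncam1 encodes a cell adhesion molecule found on satellite cells and young fibers and also on nerve. It was at 38.9, 32.2, 35.1 and 24.7 CPM in MGL KO and at 32.0, 37.2, 37.7 and 39.1 CPM in WT replicates 1 to 4. MGL KO replicate 4 was the lowest library, and the log2 fold change was -0.16 (95% interval -0.48 to 0.17, quasi-likelihood adjusted p = 0.763). It was -0.041 without that library and -0.25 without MGL KO replicate 1. The summed CPM of 9 neuronal genes, with Chat at 0 in part of the libraries, was 384.9 to 593.4 in MGL KO and 406.6 to 502.0 in WT, and that of 7 glial genes 139.0 to 307.5 in MGL KO and 122.3 to 337.7 in WT. Nos1, which skeletal muscle also expresses, made up most of the neuronal sum, at 345.3 to 550.8 CPM, while none of the other 8 neuronal genes exceeded 20.9 CPM. Their part in the Ncam1 level was not tested. Tbx1, the T-box factor of head muscle progenitors, was the most abundant member, at 240.1, 419.3, 242.8 and 201.6 CPM in MGL KO and at 252.5, 285.6, 401.1 and 259.3 CPM in WT replicates 1 to 4. Its log2 fold change was -0.12 (95% interval -0.68 to 0.45, quasi-likelihood adjusted p = 0.9). Ncam1 shares 417 exon bases and Tbx1 43 exon bases with antisense genes, and the use of strand in counting is not given in the sources used here.

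**Figure D2:**
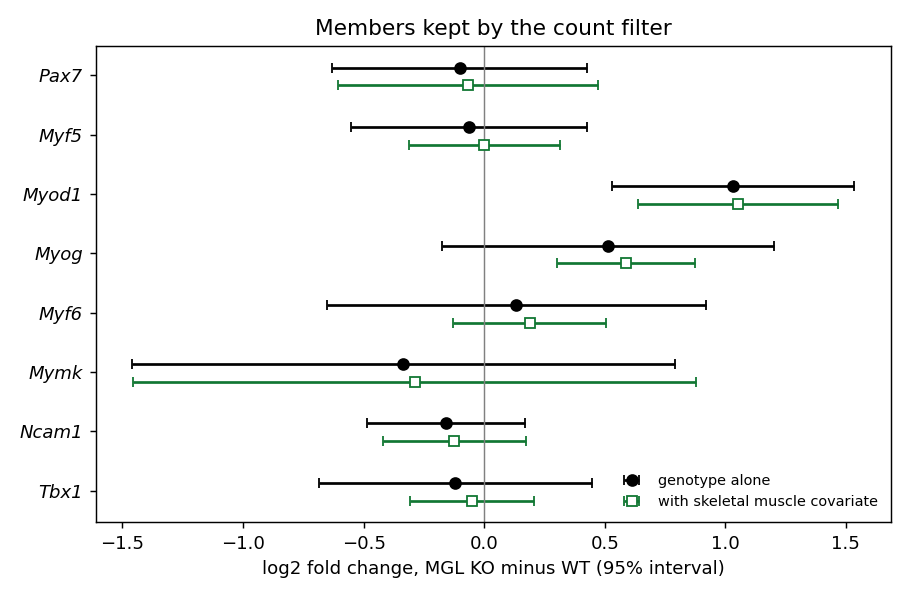
Log2 fold change of MGL KO minus WT (horizontal axis) for the 8 tested myogenic genes, with bars for the 95% interval, from edgeR's quasi-likelihood fit on genotype alone (black circles) and with skeletal muscle expression as a covariate (green open squares). The interval of Myod1 lies above 0 in both fits, that of Myog above 0 with the covariate, from 0.30 to 0.88, and those of the other 6 genes span 0.

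Levels of different genes were compared per kilobase of exon, as CPM per kb averaged over the 8 libraries. Tbx1 at 81.8 and Myf6 at 68.2 CPM per kb led, followed by Myog at 21.0, Myod1 at 13.3, Myf5 at 5.31 and Ncam1 at 3.94 CPM per kb. Pax7 was at 0.91, Mymk at 0.40, Mymx at 0.29 and Pax3 at 0.0062 CPM per kb. Neighbours in this order kept their order in 8 of 8 libraries, apart from Tbx1 over Myf6, which held in 7 of 8 libraries, and Mymk over Mymx, which held in 4 of 8 libraries. The ranges over all libraries nevertheless overlapped between all neighbours from Tbx1 down to Ncam1 and between Mymk and Mymx. With the longest transcript as the length, Tbx1 was at 111.4 and Ncam1 at 5.27 CPM per kb, the latter next to Myf5 at 5.31 CPM per kb. Tbx1 and the late factor Myf6 thus exceeded the stem cell gene Pax7 in every library.

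Part of the members followed the muscle content of a library whatever its genotype. Myf5, Myf6 and Tbx1 were highest in MGL KO replicate 2, next highest in WT replicate 3 and lowest in MGL KO replicate 4, and the summed CPM of the 14 skeletal muscle genes had the same order at these ends, with 112660, 95375 and 47436 CPM. Squamous epithelial genes were lowest where muscle was highest, their 7 genes summing to 3971 CPM in MGL KO replicate 2 and 4633 CPM in WT replicate 3, against 8860 to 16662 CPM in the other libraries. When each member was expressed per 1000 summed skeletal muscle CPM, the spread of Myf5 over the 8 libraries narrowed from 1.93-fold to 1.25-fold, that of Tbx1 from 2.08-fold to 1.32-fold and that of Myf6 from 3.33-fold to 1.5-fold. It also narrowed for Myog, from 2.80-fold to 1.86-fold, and for Myod1, from 3.89-fold to 3.30-fold. For Pax7 it widened from 1.64-fold to 2.53-fold, MGL KO replicate 2 being the lowest, and it widened for Ncam1, from 1.58-fold to 1.83-fold, Mymk, from 4.05-fold to 4.71-fold, and Mymx, from 3.23-fold to 3.44-fold.

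**Figure D3:**
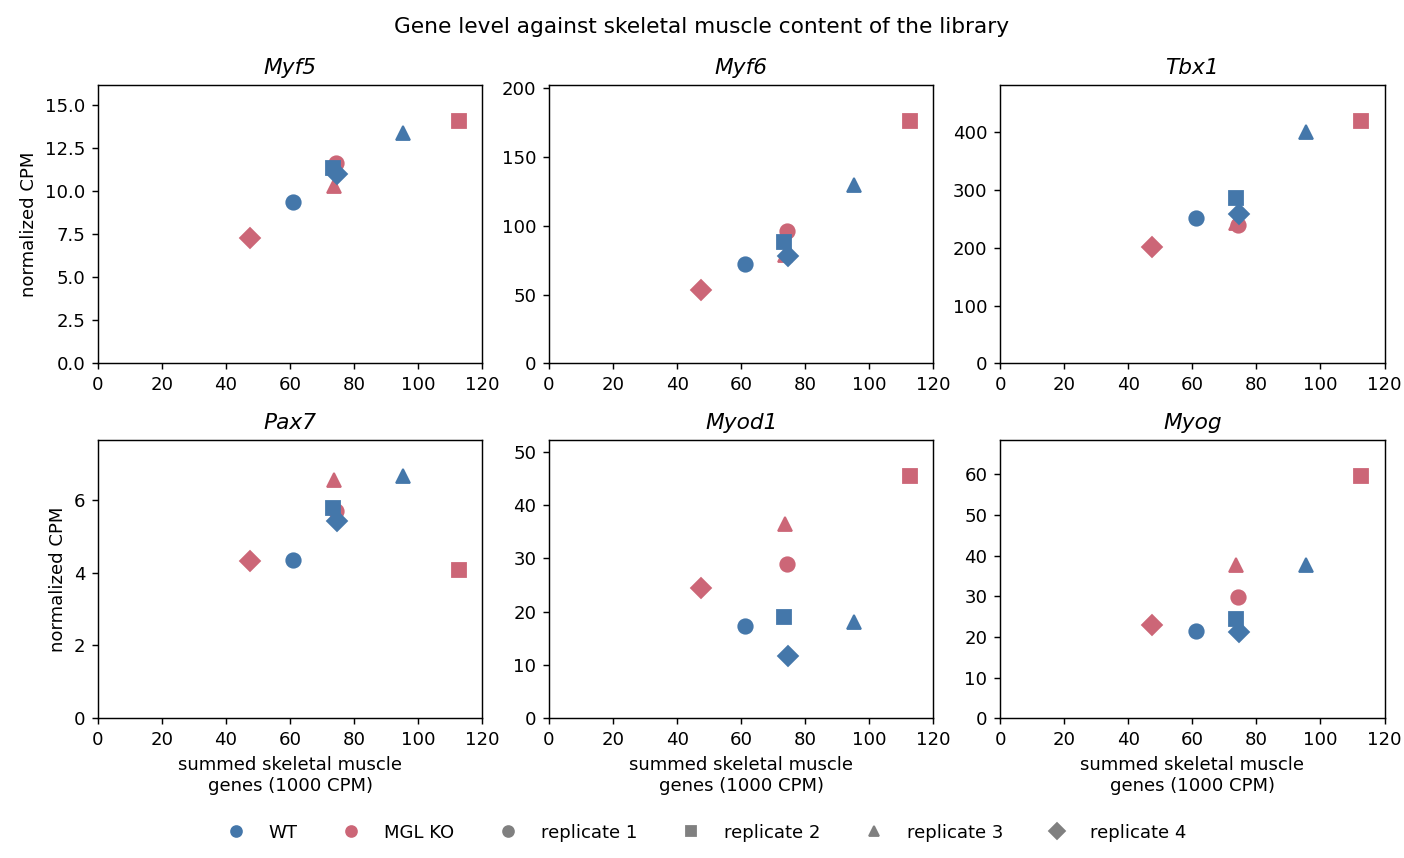
Normalized CPM of 6 myogenic genes (vertical axes) against the summed CPM of 14 skeletal muscle genes (horizontal axes, in units of 1000 CPM), 1 point for each of the 4 WT (blue) and 4 MGL KO (red) libraries. Myf5, Myf6 and Tbx1 are lowest in the library with the least muscle and highest in that with the most, with both genotypes mixed, whereas for Myod1 all red points lie above all blue points.

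On this scale both Myod1 and Myog separated the genotypes. Myod1 was at 0.39, 0.40, 0.50 and 0.52 CPM per 1000 muscle CPM in MGL KO replicates 1 to 4 and at 0.28, 0.26, 0.19 and 0.16 in WT replicates 1 to 4. Myog was at 0.40, 0.53, 0.51 and 0.48 CPM per 1000 muscle CPM in MGL KO and at 0.35, 0.33, 0.40 and 0.28 in WT replicates 1 to 4. The groups did not overlap for either gene, narrowly for Myog, where 0.403 in MGL KO replicate 1 stood against 0.396 in WT replicate 3. Of all tested genes, 1.79% separated on the same scale and 1.16% in this direction. For Myf5 (0.14 ± 0.015 in MGL KO and 0.15 ± 0.0064 in WT, SD, n = 4), Tbx1 (3.62 ± 0.47 and 3.93 ± 0.33) and Myf6 (1.26 ± 0.22 and 1.20 ± 0.13), the groups overlapped.

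With the mean log2 CPM of the skeletal muscle list as a covariate, edgeR's quasi-likelihood fit gave Myod1 a log2 fold change of 1.05 (standard error 0.18, unadjusted p = 0.000316, adjusted p = 0.0716). The value of Myog was 0.59 (standard error 0.13, unadjusted p = 0.00134, adjusted p = 0.111), its standard error having been 0.30 without the covariate. In that fit 17.3% of all tested genes had an unadjusted p under 0.05 (8.58% higher in MGL KO) and 0.202% an adjusted p under 0.05, and 0 members were among the latter. Within the muscle list, Myh4, the myosin of the fastest fibers, named after its values were seen, had a log2 fold change of -1.33 with an unadjusted p of 0.00998 from the quasi-likelihood test, and the adjusted p did not pass 0.05. The other 13 genes had an unadjusted p above 0.05.

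**Figure D4:**
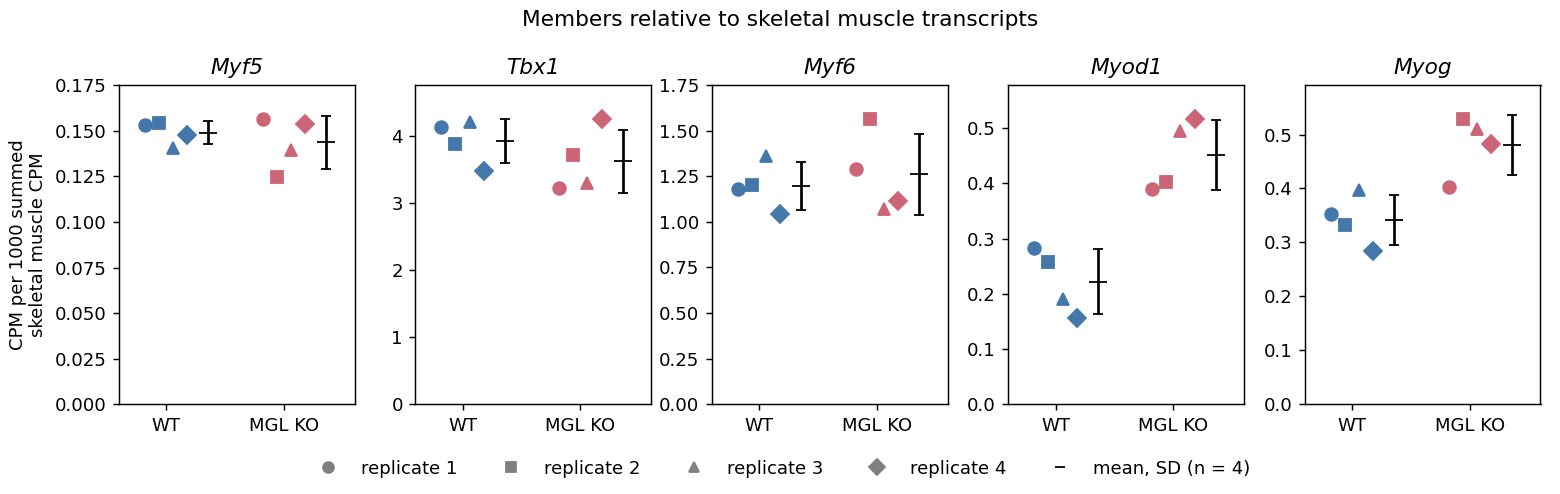
CPM of 5 myogenic genes per 1000 summed skeletal muscle CPM (vertical axes, starting at 0) in 4 WT (blue) and 4 MGL KO (red) libraries, with marker shapes for replicate numbers and black bars for the mean and SD. The genotypes overlap for Myf5, Tbx1 and Myf6 and do not overlap for Myod1 and Myog.

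Other genes of the pathway were taken from 5 lists with 81 genes in all, of which 77 were tested. By the quasi-likelihood test 0 of them had an adjusted p under 0.05 and 13 an unadjusted p under 0.05, 8 of these higher and 5 lower in MGL KO. The 13 of 77 stand beside 8.65% of all tested genes, and the median log2 fold change of the 77 was -0.04. Of the 13, 6 belonged to the developmental muscle genes. Tnnt2, Ankrd1 and Eya2, also among the 13, were highest in MGL KO replicate 4, which held airway transcripts. DESeq2 and both exact tests called 1 of them, Myh3. The groups did not overlap in 5 of the 77, with MGL KO above WT in 4 and below in 1, a share near the 6.02% of all tested genes.

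Satellite cell surface and signaling genes comprised 22 tested genes, 8 higher and 14 lower in MGL KO, with a median log2 fold change of -0.08 and 4 genes with an unadjusted p under 0.05, where 8.65% of all tested genes had one. These were Sdc4, Chodl, Spry1 and Cd34, the latter a surface marker of satellite and endothelial cells with a log2 fold change of -0.52, Spry1 and Cd34 being named after their values were seen. Calcr, the calcitonin receptor of quiescent satellite cells, had a log2 fold change of -0.70 (standard error 0.42, -0.98 to -0.43 with 1 library left out), at 0.73 ± 0.35 CPM (SD, n = 4) in MGL KO and 1.19 ± 0.30 CPM (SD, n = 4) in WT. Chodl, a membrane lectin, had a value of -0.57 on the log2 scale (standard error 0.25), and of -0.36 without WT replicate 4. Heyl, a target of Notch signaling, which keeps satellite cells quiescent, had a log2 fold change of 0.55 (standard error 0.25). The proteoglycan gene Sdc4 was at 110.1 ± 14.6 CPM (SD, n = 4) in MGL KO and 79.6 ± 14.0 CPM (SD, n = 4) in WT, and its groups did not overlap (log2 fold change 0.47, quasi-likelihood adjusted p = 0.503). Spry1, an inhibitor of growth factor signaling, was the other gene of the list with all MGL KO libraries, at 29.1 to 41.0 CPM, above all WT libraries, at 21.4 to 28.9 CPM, a pattern of 2.72% of all tested genes.

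Regulators of head muscle comprised 15 tested genes, 7 higher and 8 lower, with a median log2 fold change of -0.03. Isl1, a factor of head muscle progenitors, had a log2 fold change of -0.27, which was -0.51 without MGL KO replicate 2 and -0.057 without WT replicate 3. That of Meox2 was -0.29, or -0.11 with limma-voom and -0.083 lacking both MGL KO replicates 2 and 4. Eya2 and Six2 had the largest positive values, 1.03 and 1.23, and both were set by MGL KO replicate 4, which held the airway transcripts. Eya2 was at 46.9 CPM there against at most 16.4 CPM in the other MGL KO libraries, and Six2 at 8.54 CPM against 0.99 to 1.29 CPM. Without that library their log2 fold changes were 0.35 and -0.15.

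Among the bHLH partners, their Id inhibitors and the Mef2 factors, 6 of 15 tested genes were higher and 9 lower, with a median log2 fold change of -0.05. Id3, which binds the bHLH partner proteins and so keeps myogenic factors from DNA, was at 16.7, 15.4, 16.0 and 17.3 CPM in MGL KO and at 23.6, 18.6, 21.6 and 23.5 CPM in WT replicates 1 to 4. The MGL KO libraries all lay below the WT libraries, as in 3.3% of all tested genes, and its log2 fold change was -0.42 (standard error 0.12, quasi-likelihood adjusted p = 0.478). Id1 went the other way with a log2 fold change of 0.47, and Id4 had a value of -0.24, which was -0.40 without MGL KO replicate 4 and -0.072 without MGL KO replicate 2. Srf, the serum response factor that drives actin genes, was at 149.2 ± 13.2 CPM (SD, n = 4) in MGL KO and 123.6 ± 9.16 CPM (SD, n = 4) in WT, with separate groups and a log2 fold change of 0.27 (quasi-likelihood adjusted p = 0.542).

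Adhesion and fusion genes of myoblasts comprised 11 tested genes, 6 higher and 5 lower, none with an unadjusted p under 0.05 (0 by the adjusted p of the quasi-likelihood test, the exact tests and DESeq2). Their log2 fold changes ranged from -0.14 for the receptor gene Neo1 to 0.57 for the cadherin gene Cdh2, with -0.10 for Kirrel and 0.25 for Adgrb1, and the median was 0.10. With 1 library left out, Kirrel ranged from -0.26 to -0.0083 and Neo1 from -0.18 to -0.088. The value of Cdh2 was 0.03 without MGL KO replicate 4.

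Developmental muscle genes comprised 15 tested genes, 8 higher and 7 lower, with a median log2 fold change of 0.01. Of these, 6 had an unadjusted p under 0.05, 4 of them higher, where 8.65% of all tested genes did and 4.35% were higher. The higher ones were Myh3, Tnnt2, Ankrd1 and Cdkn1c, and the lower ones Mybph and Fst, with Cdkn1c and Fst named after their values were seen. Tnnt2 and Ankrd1 were highest in MGL KO replicate 4, which held the airway transcripts. Myh3, the embryonic myosin heavy chain that is made again in regenerating fibers, was at 44.7, 61.4, 41.1 and 31.0 CPM in MGL KO and at 8.48, 6.74, 13.1 and 12.8 CPM in WT replicates 1 to 4. Its groups did not overlap, and its log2 fold change was 2.11 (standard error 0.27, quasi-likelihood adjusted p = 0.0535). It was called in 7 of the 13 alternative settings with all libraries and in 0 of the 8 fits without 1 library, whose adjusted p lay between 0.0532 and 0.274. Myh8, the perinatal myosin heavy chain, named after its values were seen, was at 27497 ± 5871 CPM (SD, n = 4) in MGL KO and 27233 ± 3329 CPM (SD, n = 4) in WT, with a log2 fold change of 0.01. The fetal receptor subunit gene Chrng had a value of -0.53 on the log2 scale (standard error 0.36), which was -0.87 without MGL KO replicate 2 and -0.30 without MGL KO replicate 4, and Mybph had one of -0.45 (standard error 0.20), or -0.30 without MGL KO replicate 4. Tnnt2, the cardiac and embryonic troponin T gene, was at 412.1 CPM in MGL KO replicate 4 against 48.2 to 61.1 CPM in the other MGL KO libraries, and its log2 fold change of 1.76 was 0.36 without that library. Myl4 and Ankrd1, named after their values were seen, had log2 fold changes of 1.5 and 1.11 and were also highest there, at 206.2 and 27.3 CPM against at most 41.2 and 18.2 CPM in the other libraries.

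**Figure D5:**
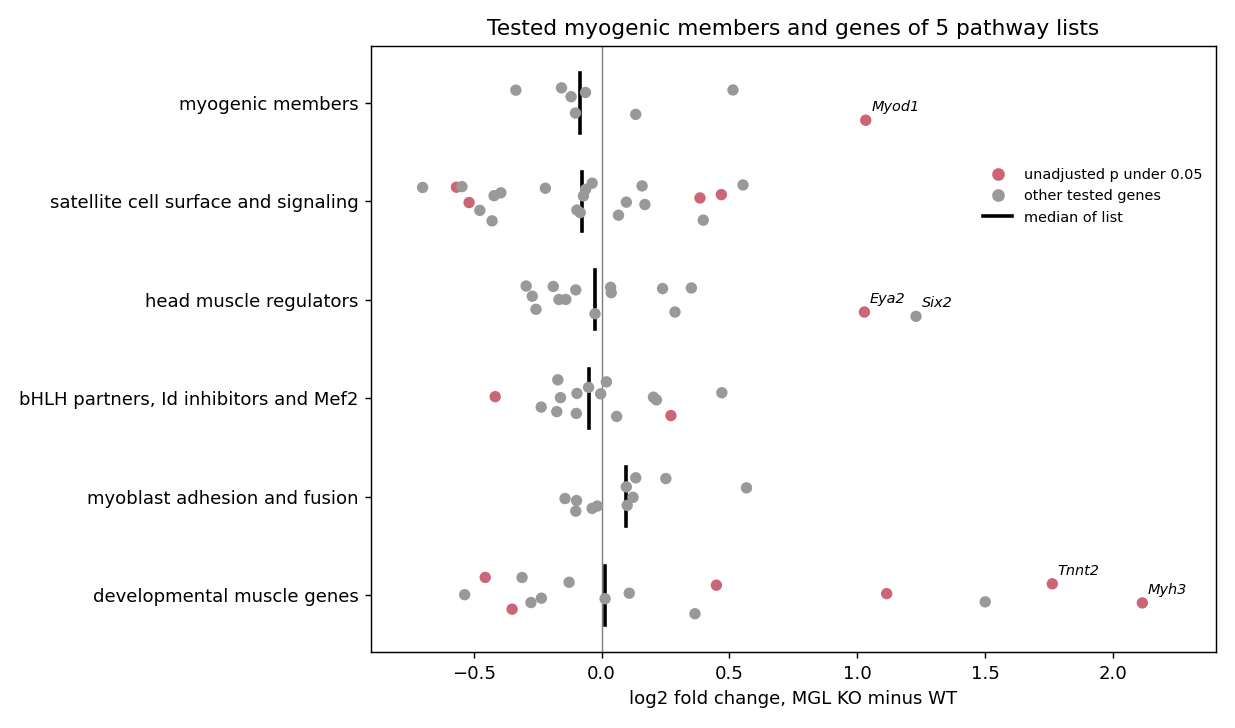
Log2 fold change of MGL KO minus WT (horizontal axis) for the 8 tested myogenic members and the tested genes of 5 pathway lists, each point a gene, red where the unadjusted quasi-likelihood p was under 0.05, with a black bar at the median of the list. All medians lie between -0.08 and 0.10, and the genes labelled beyond 0.9 are Myod1, Eya2, Six2, Tnnt2 and Myh3, with Ankrd1 and Myl4 unlabelled in the bottom row.

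The genes whose log2 CPM followed a member most closely over the 8 libraries were Zfp639 (Pearson r = 0.989), Rai2 (0.984) and Sra1 (0.978) for Myog, and Krit1 (0.966), Flg (0.961) and 2500002B13Rik (0.960) for Pax7. They are the highest of 14863 genes compared for each member, and all genes of a library share its depth and tissue makeup.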

How the data were processed

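Esophagus libraries, 4 of MGL KO and 4 of WT mice, were grouped by their titles. The authors selected poly(A) RNA, checked reads with FastQC 0.11.9, trimmed them with Cutadapt, aligned them to GRCm39 with STAR 2.7.10b and deposited raw counts per gene symbol (versions from the submitters' processing notes). The counting tool, annotation and use of strand are not given in the sources used here.

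Genes were kept by filterByExpr at a minimum count of 10 (edgeR 4.0.16, R 4.3.3), which left 14864 of 32849 symbols, library sizes were scaled by TMM, and genotypes were compared by the quasi-likelihood test of edgeR, with Benjamini-Hochberg p-values adjusted over all tested genes (threshold 0.05). Standard errors came from the F statistic. Covariates were the mean log2 CPM of the skeletal muscle or the Y-linked list. The exact test of edgeR, which the study names, DESeq2 1.42.0 and limma-voom 3.58.1 were alternatives, beside other factors and filters, covariates, the replicate block and each library left out. The tests were tested on simulated data. Lengths and positions came from GENCODE M39 on GRCm39. Kirrel1 was matched as Kirrel through RefSeq synonyms. The members and lists were chosen with earlier results of these data known. Named genes were the members, Mgll, in each pathway list the 2 most positive and the 2 most negative log2 fold changes, and the 3 genes most like Myog and Pax7.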

Additional observations from a re-analysis of the deposited data

Results flagged for a closer look

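Of 48 groups of 4 values examined, 5 held a library far from its group, where chance gives about 2.4. Mymk was low in WT replicate 2, at 0.228 CPM against at least 0.848 CPM in the other WT libraries, from 4 counts. Pax3 was at 0.122 CPM in MGL KO replicate 1 and at 0 in the other MGL KO libraries, which is below the level of 3 counts. The summed CPM of the marker lists stood apart in MGL KO replicate 4 for airway ciliated cells (718.4 CPM, others of its group at most 21.2), in MGL KO replicate 3 for smooth muscle (2001 CPM, others at most 1518) and in WT replicate 1 for thyroid (4.80 CPM, others at most 0.91). Their part in the myogenic genes was not tested beyond the fits without each library.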

How the results depend on the processing

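The quasi-likelihood test called 7 genes. DESeq2 called 130, the exact test 64 with the filter and 42 without it, the skeletal muscle covariate 30, limma-voom 25 and the Y-linked covariate 3. The robust fit, the fit on unfiltered genes and the fit lacking both MGL KO replicates 2 and 4, which was added after the data were seen, each called 2. Leaving out 1 library gave 2 to 5 genes. Same-numbered libraries did not deviate together (correlations of -0.14, -0.28, -0.14 and 0.08 over 14864 genes), and the replicate block called 2 genes and 0 members.

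Members called numbered 0, but 1 (Myod1) with DESeq2 and with both exact tests. Pathway genes called numbered 0, but 1 (Myh3) with DESeq2, both exact tests, limma-voom, library size alone, a minimum of 10 counts in each library and the muscle covariate. Leaving out 1 library kept both counts at 0. The cause was not tested.

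Some log2 fold changes changed sign. Pax7 had 0.066 with limma-voom, 0.14 lacking MGL KO replicates 2 and 4, and -0.24 to 0.0012 with 1 library left out. Myf5 had 0.0012 with the muscle covariate and -0.21 to 0.087 with 1 library left out, including 0.039 without WT replicate 3. Myf6 had -0.071 lacking MGL KO replicates 2 and 4 and -0.27 to 0.36 with 1 library left out. Mymk had 0.13 with limma-voom, and Ncam1 had 0.023 lacking MGL KO replicates 2 and 4. Tbx1 ranged from -0.39 to 0.064 with 1 library left out, with 0.0057 without MGL KO replicate 4. Six2 had -0.064 lacking MGL KO replicates 2 and 4 and -0.15 to 1.51 with 1 library left out, and Adgrb1 ranged from -0.043 to 0.35. Myod1 had 0.99 lacking MGL KO replicates 2 and 4 and was positive in all settings. Counts of 16 or fewer limit Mymk and Mymx.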
